A study of Mus musculus with 12 samples.

Results

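Fat cells lie between the fibers and along the fascia of skeletal muscle, so RNA from a whole dissected muscle carries some adipocyte transcripts. The 10 transcripts described here, Adipoq, Cfd, Plin1, Fabp4, Cidec, Lep, Retn, Retnla, Pparg and Lipe, were taken by gene name from the 17752 genes listed for the EDL (extensor digitorum longus) muscle, the long extensor of the toes and mostly made of fast fibers. All 10 names were found, and 9 of them were among the 12744 genes averaging 0.5 FPKM or more in the 12 libraries, which were tested. Lep averaged less and was left out of those fits. FPKM is a count of fragments scaled by transcript length and library depth. The question asked of these genes was whether they rose and fell together from muscle to muscle, as they would if the amount of fat differed between the samples.

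Bulk RNA-seq was performed on EDL of male mice in 4 groups of 3 libraries: WT sedentary, strNrip1-/- sedentary, WT trained and strNrip1-/- trained. In strNrip1-/- mice a Cre recombinase driven by the muscle creatine kinase promoter deletes a floxed Nrip1 allele in heart and skeletal muscle, so adipocytes should keep the gene, and littermates without Cre served as WT. Floxed mice were C57BL/6J and the Cre line C57BL/6JN. Mice of all 4 groups started at 8 weeks of age. Training was voluntary wheel running for 8 weeks, and sedentary mice were kept untrained over the same time. The libraries held the equivalent of 20.0 to 29.1 M fragments (M stands for mega). Nrip1, which encodes the corepressor RIP140, went against the genotype labels: it was 3.33 ± 0.689 FPKM in WT sedentary and 15.5 ± 0.680 FPKM in strNrip1-/- sedentary libraries (mean ± SD, n = 3), and 3.62 ± 1.12 FPKM against 17.4 ± 3.02 FPKM after training. These values cover the whole gene, the exons outside the deleted part included, so transcript still made from the floxed allele and exchanged labels cannot be told apart from them. Every genotype below is the labelled one. Nothing in the labels says which libraries came from separate animals, so p-values measure the spread between these samples.

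White adipocytes store triglyceride in 1 large lipid droplet and secrete hormones called adipokines. Perilipin 1 (Plin1) and CIDEC coat the droplet, hormone-sensitive lipase (Lipe) helps to break its triglyceride down, and PPARγ (Pparg) is the nuclear receptor that drives adipocyte differentiation. Adiponectin (Adipoq), complement factor D or adipsin (Cfd), leptin (Lep) and resistin (Retn) are adipokines made mainly by adipocytes in the mouse. Other members are less specific, since Fabp4, a fatty acid carrier, is also abundant in capillary endothelium, and Lipe is also made by muscle fibers. The 6 fast-fiber markers Ckm, Acta1, Myh4, Tnnt3, Pvalb and Mylpf summed to between 72405 and 117855 FPKM per library, so every sample carried fast muscle RNA far above its adipocyte transcripts. The 9 adipocyte transcripts other than Retnla summed to between 179.2 and 366.0 FPKM, mostly Fabp4. In bulk tissue, fewer adipocytes and less of a transcript per adipocyte cannot be told apart.

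Adipoq (ENSMUSG00000022878, chromosome 16, 23146536 to 23158028, plus strand, GRCm38) encodes adiponectin. It stood at 3.23, 1.72 and 0.791 FPKM in the 3 WT sedentary libraries and at 3.59, 3.10 and 10.3 FPKM in the strNrip1-/- sedentary libraries, in order of replicate number. In trained muscle it was 1.73, 2.66 and 7.71 FPKM in WT and 2.88, 3.38 and 6.58 FPKM in strNrip1-/-. Replicate 3 of strNrip1-/- sedentary, of WT trained and of strNrip1-/- trained stood above 5 FPKM, while the other 9 libraries lay between 0.791 and 3.59 FPKM. The highest library was 13.1 times the lowest, and 35.2% of the variance of log2(FPKM + 0.5) lay between the 4 groups. These levels rested on an estimated 15.1 to 255.6 fragments per library.

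Cfd (ENSMUSG00000061780, chromosome 10, 79890853 to 79892655, plus strand) encodes adipsin, a serine protease of the alternative complement pathway. It was 16.8, 19.2 and 7.83 FPKM in WT sedentary and 32.7, 35.3 and 82.0 FPKM in strNrip1-/- sedentary muscle. After training it was 27.4, 29.2 and 55.4 FPKM in WT and 34.8, 38.5 and 90.5 FPKM in strNrip1-/- muscle. The same 3 libraries were highest as for Adipoq, and WT sedentary replicate 3 was again lowest. All WT sedentary libraries lay below all the others. The range was 11.5-fold, with 63.0% of the log2 variance between groups.

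Leptin and resistin were near the limit of detection or low. Lep (ENSMUSG00000059201, chromosome 6, 29060220 to 29073877, plus strand), the satiety hormone, was 0.898, 0.245 and 0.136 FPKM in WT sedentary, 0.572, 0.166 and 0.850 FPKM in strNrip1-/- sedentary, 0.0266, 0.119 and 1.04 FPKM in WT trained and 0.131, 0.0665 and 0.626 FPKM in strNrip1-/- trained libraries. The lowest of these corresponded to an estimated 1.99 fragments, under the floor of 3 fragments, which for Lep stood at 0.0353 to 0.0514 FPKM depending on the library. Every group held both a low and a high library, and only 8.45% of the log2 variance of Lep lay between groups. Retn (ENSMUSG00000012705, chromosome 8, 3655770 to 3660110, plus strand) was 1.04, 1.64 and 1.22 FPKM in WT sedentary and 1.59, 1.86 and 6.63 FPKM in strNrip1-/- sedentary muscle. It was 2.44, 1.69 and 4.24 FPKM in WT trained and 3.24, 1.44 and 4.55 FPKM in strNrip1-/- trained muscle. The 3 libraries with the most Adipoq also held the most Retn.

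The same 3 libraries were on top for Plin1 but not for Cidec, the droplet coat genes. Plin1 (ENSMUSG00000030546, chromosome 7, 79720218 to 79732903, minus strand) was 1.88, 0.865 and 1.45 FPKM in WT sedentary, 2.34, 1.59 and 7.86 FPKM in strNrip1-/- sedentary, 1.79, 1.03 and 5.30 FPKM in WT trained and 1.19, 1.43 and 6.32 FPKM in strNrip1-/- trained libraries. The 9 other libraries all lay between 0.865 and 2.34 FPKM, and only 17.8% of the log2 variance lay between groups. Cidec (ENSMUSG00000030278, chromosome 6, 113424634 to 113435760, minus strand), whose product fuses lipid droplets, was 1.22, 1.86 and 0.978 FPKM in WT sedentary and 2.30, 3.89 and 8.32 FPKM in strNrip1-/- sedentary muscle. In trained muscle it was 1.67, 1.89 and 3.23 FPKM in WT and 1.56, 3.75 and 4.89 FPKM in strNrip1-/-. For Cidec, strNrip1-/- replicate 2 of either training state exceeded the WT trained library that was high in Adipoq and Plin1.

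Pparg, Lipe and Fabp4 varied far less. Pparg (ENSMUSG00000000440, chromosome 6, 115360951 to 115490399, plus strand) was 1.28, 1.32 and 1.27 FPKM in WT sedentary, 2.08, 1.73 and 1.73 FPKM in strNrip1-/- sedentary, 1.62, 1.57 and 2.15 FPKM in WT trained and 1.85, 1.36 and 4.35 FPKM in strNrip1-/- trained libraries. Its highest library was not the one highest in Adipoq. Lipe (ENSMUSG00000003123, chromosome 7, 25379527 to 25398710, minus strand) was 7.04, 8.68 and 6.97 FPKM in WT sedentary and 8.78, 9.05 and 12.7 FPKM in strNrip1-/- sedentary muscle, then 8.95, 11.8 and 9.82 FPKM in WT trained and 11.9, 16.3 and 14.5 FPKM in strNrip1-/- trained muscle. The WT sedentary libraries were the lowest and most strNrip1-/- trained libraries the highest for Lipe, and 74.2% of its log2 variance lay between groups. Fabp4 (ENSMUSG00000062515, chromosome 3, 10204088 to 10208576, minus strand) was the most abundant member, at 167, 189 and 159 FPKM in WT sedentary, 188, 218 and 236 FPKM in strNrip1-/- sedentary, 188, 171 and 172 FPKM in WT trained and 199, 171 and 222 FPKM in strNrip1-/- trained libraries. Its highest library was 1.49 times its lowest, against 13.1 for Adipoq. Pparg and Lipe each overlap the span of an annotated antisense gene (Gm44079 and 4732471J01Rik). The library kit does not keep strand, so reads could not be told apart where exons overlap, and overlap of exons was not checked.

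**Figure D1:**
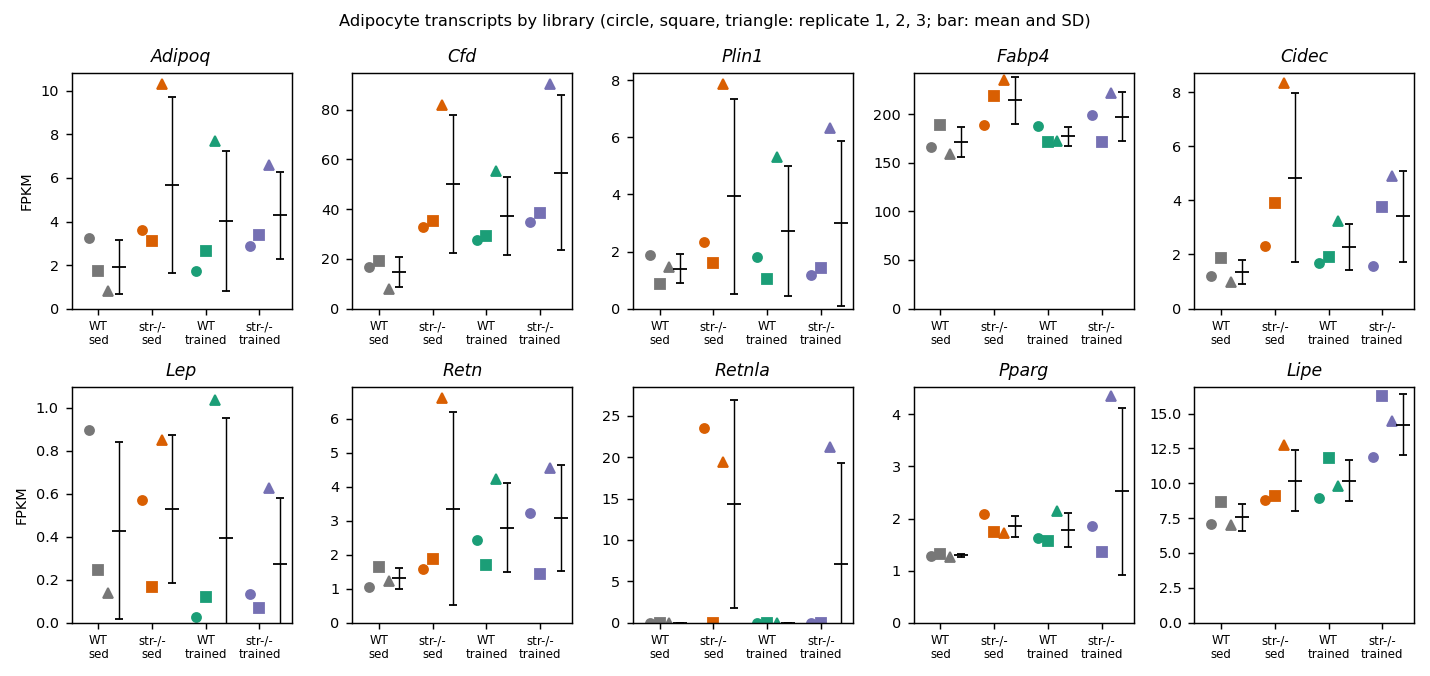
FPKM of the 10 adipocyte transcripts (y axis, linear, from 0) in each library of the 4 groups (x axis, str-/- stands for labelled strNrip1-/-, sed for sedentary); circles, squares and triangles are replicates 1, 2 and 3, and bars are the mean and SD of 3 libraries, cut at 0. For Adipoq, Cfd, Plin1 and Retn replicate 3 of the last 3 groups stood above the rest, reaching 10.3 FPKM for Adipoq, while Fabp4 stayed between 159 and 236 FPKM.

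Retnla (ENSMUSG00000061100, chromosome 16, 48842551 to 48844461, plus strand) encodes resistin-like alpha, a secreted protein of alternatively activated macrophages and of white fat. Its values were all or none, so whether it follows the other members cannot be read from them. It was listed at 0 in 9 libraries and at 23.5, 19.4 and 21.2 FPKM in strNrip1-/- sedentary replicates 1 and 3 and strNrip1-/- trained replicate 3. No library held an intermediate level. Of the 8 genes listed at 0 in at least 6 libraries and above 10 FPKM in another, 7 were annotated as pseudogenes and Retnla was the remaining, protein-coding one. Its 599-nt transcript shares 31 of 569 31-base words with that of its paralog Retnlg, which was at most 0.551 FPKM in any library, and 0 with that of Retn. A listed 0 of this kind can be a failed assignment of reads, so no fold or test is given for Retnla, and it is left out of the counts and medians of members below.

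The 9 members other than Retnla were next ranked over the libraries. strNrip1-/- sedentary replicate 3 was among the 3 highest libraries for 8 of the 9 genes and the highest for 5. strNrip1-/- trained replicate 3 was among the 3 highest for 8 genes and WT trained replicate 3 for 6. WT sedentary replicates 1, 2 and 3 were among the 3 lowest for 6, 5 and 7 genes.

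Members were then compared with Adipoq over the 12 libraries, on the log2(FPKM + 0.5) scale, in 8 relations whose permutation p-values (two-sided, 100000 resamples) are unadjusted. Cfd had a Pearson r of 0.898 (p = 1.40e-04) and a Spearman rho of 0.818 (p = 0.00173). For Plin1 r was 0.840 (p = 9.40e-04) and rho 0.790 (p = 0.00356), and for Cidec r was 0.824 (p = 9.20e-04) and rho 0.741 (p = 0.00789). Lep gave an r of 0.728 (p = 0.00634) and a rho of 0.629 (p = 0.0328), while Retn gave an r of 0.761 (p = 0.00380) but a rho of 0.497 (p = 0.104). The less variable genes had lower r, at 0.566 for Pparg (permutation p = 0.0600), 0.558 for Fabp4 (permutation p = 0.0605) and 0.542 for Lipe (permutation p = 0.0696). Their rho values were 0.643 (p = 0.0277), 0.441 (p = 0.154) and 0.566 (p = 0.0585). Among the 12743 tested genes other than Adipoq, Cfd ranked 1st by r, Plin1 3rd, Cidec 8th and Retn 28th.

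How much of this rested on single libraries was measured in 3 ways. Without the 2 libraries farthest from the median of Adipoq, the highest (strNrip1-/- sedentary replicate 3) and the lowest (WT sedentary replicate 3), r was 0.785 for Cfd (permutation p = 0.00816), 0.878 for Plin1 (p = 0.00259) and 0.713 for Lep (p = 0.0190). It was 0.625 for Cidec (permutation p = 0.0532) and 0.590 for Retn (permutation p = 0.0711), which no longer passed without both of these libraries, although both genes passed when any 1 library was left out (lowest r 0.733 and 0.640). For Pparg r was 0.690 (permutation p = 0.0266). For Fabp4 and Lipe it fell to 0.0935 and 0.316. After the group means were removed and libraries permuted within groups (1296 arrangements), r was 0.924 for Lep (exact p = 0.00154), 0.904 for Cfd (exact p = 0.00772), 0.815 for Plin1 (exact p = 0.0162), 0.733 for Cidec (exact p = 0.0224) and 0.665 for Retn (exact p = 0.0571). Within groups it was 0.421 for Pparg (exact p = 0.101), 0.424 for Lipe (exact p = 0.248) and 0.325 for Fabp4 (exact p = 0.346).

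The third comparison left out the 3 libraries above 5 FPKM of Adipoq and was added after the values were seen. In the 9 remaining libraries Cfd still had an r of 0.805 with Adipoq (exact permutation p = 0.0158), with a rho of 0.617 (exact p = 0.0857). For Plin1 r was 0.293 (exact p = 0.448), for Lep 0.371 (exact p = 0.316), for Cidec 0.597 (exact p = 0.0887) and for Retn 0.0994 (exact p = 0.801). The relation did not pass the test for these 4 genes. Nor did it pass for Pparg (r = 0.493, exact p = 0.178), Lipe (r = 0.469, exact p = 0.200) or Fabp4 (r = 0.374, exact p = 0.323). In these libraries the less variable genes thus had r values above those of Plin1, Lep and Retn. Because the libraries were split on Adipoq itself, its range was narrower here (0.791 to 3.59 FPKM), and these r values are not comparable in size with those over 12 libraries.

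**Figure D2:**
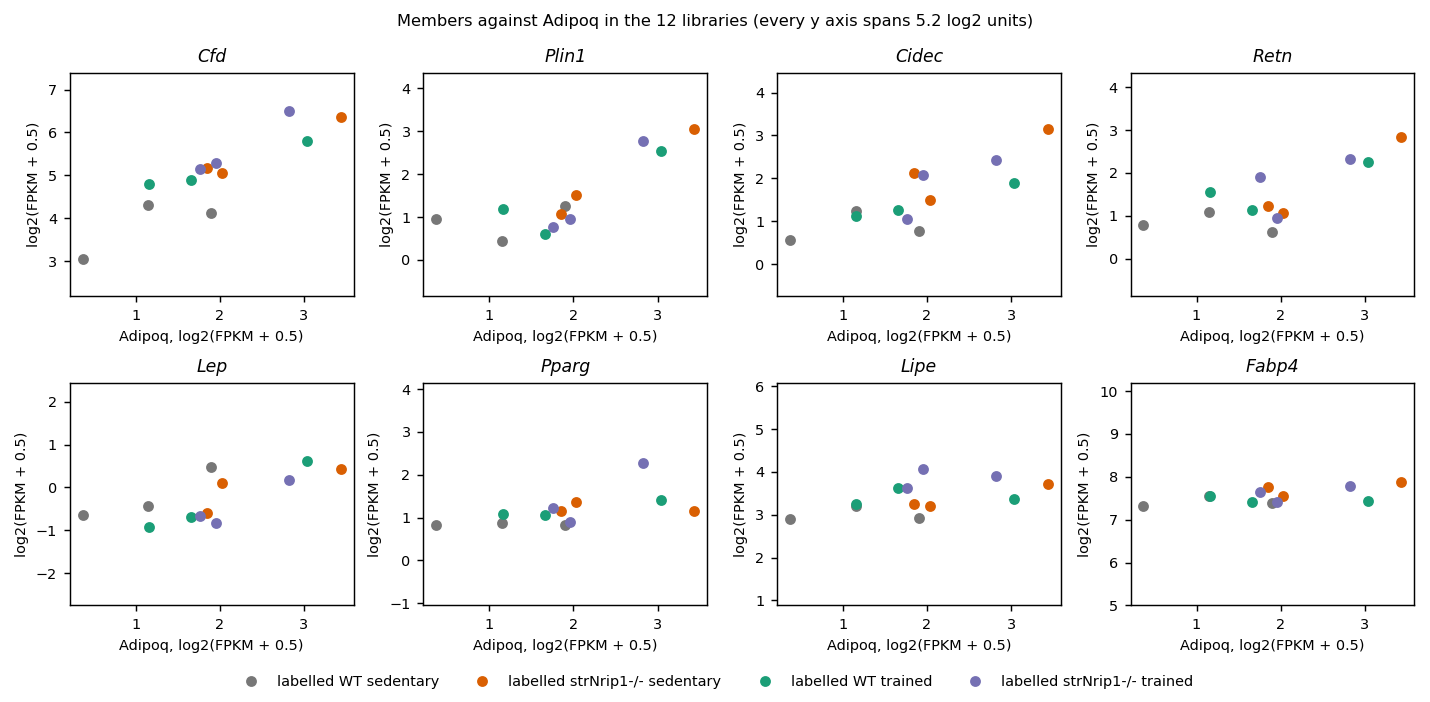
Each of 8 adipocyte transcripts (y axis) against Adipoq (x axis) in log2(FPKM + 0.5), 1 point per library colored by labelled group, with y axes of equal span. The 3 libraries on the right of each panel carry the highest Plin1 and Retn, Cfd climbs over the whole range (r = 0.898), and Fabp4 and Lipe stay nearly flat.

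The size of the shared movement differed between genes. A slope on Adipoq was fitted within groups with limma to all genes, so that a slope of 1 means a change in proportion to Adipoq on the log2(FPKM + 0.5) scale. Plin1 had a slope of 0.94 (SE 0.215) and Cfd of 0.76 (SE 0.116). Cidec and Retn both had a slope of 0.56 (SE 0.169 and 0.201). The slopes of Pparg (0.20, SE 0.143), Lipe (0.12, SE 0.0846) and Fabp4 (0.06, SE 0.0593) were small. None passed Benjamini-Hochberg adjustment in limma, where 0% of the 12743 genes did and the adjusted p of Cfd was 0.779. By the unadjusted p of limma, Cfd ranked 1st of 12743 genes, Plin1 17th and Cidec 76th. Of the 7 members tested, 4 had a positive slope with an unadjusted p under 0.05 (Cfd, Plin1, Cidec and Retn), set against 1.96% of all tested genes. With replicate number as a block the Retn slope was 0.32 and its unadjusted p was no longer under 0.05, which leaves 3 of 7. The median slope was 0.56 over these 7 and 0.00 over all genes.

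In ratio to Adipoq within a library, Cfd ran from 5.21 to 15.8, a 3.04-fold range where Cfd itself spanned 11.5-fold. The Cidec ratio spanned 3.33-fold and the Plin1 ratio 4.74-fold, while their own levels spanned 8.51-fold and 9.09-fold. For Fabp4 the order was turned around, since its ratio to Adipoq spanned 8.98-fold and its own level 1.49-fold. Pparg and Lipe likewise had wider ratios (9.57-fold and 7.14-fold) than levels (3.44-fold and 2.33-fold). Adipoq itself spanned 13.1-fold, so a gene that varies little must have a wide ratio to it. The wide ratio of Fabp4 therefore follows from the ranges alone, and those of Pparg and Lipe follow in part. The Lep ratio spanned 18.1-fold, with low counts behind its lowest values.

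Other white adipocyte genes were read from a list of 20 that holds no member. Of the 17 tested, 0 passed the adjusted test for a slope on Adipoq, 5 had a positive slope with an unadjusted p under 0.05 and 1, Agt, a negative one (-0.17, SE 0.0584). Their median slope was 0.03, against 0.56 for the members, and 6 of the 17 slopes were negative, among them Adig (-0.08, SE 0.187) and Aqp7 (-0.03, SE 0.0914), an adipocyte protein and the glycerol channel of fat cells. Levels in this list differed widely. Over the 12 libraries Gpd1 averaged 279.8 FPKM, Plin4 53.3 FPKM and Dgat2 28.2 FPKM, where Adipoq averaged 3.975 FPKM. Adig and Aqp7 averaged 2.14 and 3.54 FPKM. From which cells the reads of the listed genes came was not tested, so their median slope need not describe adipocytes alone. Nnat, which encodes neuronatin, had a slope of 1.04 (SE 0.276). Scd1, the stearoyl-CoA desaturase, had 0.67 (SE 0.238) and Fasn, the fatty acid synthase, 0.43 (SE 0.154). Scd1 was 63.1 FPKM in strNrip1-/- sedentary replicate 3 and no higher than 25.8 FPKM elsewhere. Fasn was 12.5 FPKM there, 11.4 FPKM in strNrip1-/- trained replicate 3 and 7.37 FPKM in WT trained replicate 3, against 3.11 to 5.95 FPKM in the other 9 libraries. The brown adipocyte genes Ucp1 (3.80 FPKM) and Cidea (3.31 FPKM) were also highest in strNrip1-/- sedentary replicate 3, and neither had a slope past the unadjusted limit. The 6 brown adipocyte genes summed to 5.79 to 13.7 FPKM in strNrip1-/- sedentary libraries, highest in replicate 3, and to 5.19 to 8.37 FPKM in the other groups. Ppargc1a, 1 of these 6, was itself 3.76 to 6.75 FPKM over the 12 libraries. Ucp1 was 0.170 and 0.103 FPKM in strNrip1-/- sedentary replicates 1 and 2 and was listed at 0 in some libraries. The part of brown adipocyte genes in the adipocyte levels was not tested. The 10 non-members most like Adipoq by r, between 0.842 and 0.815 over the 12 libraries, were Gm13305, Xxylt1, Tcaf1, Htt, Amot, Svep1, Fancl, Gm47654, Rcan3 and Aoc3.

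**Figure D3:**
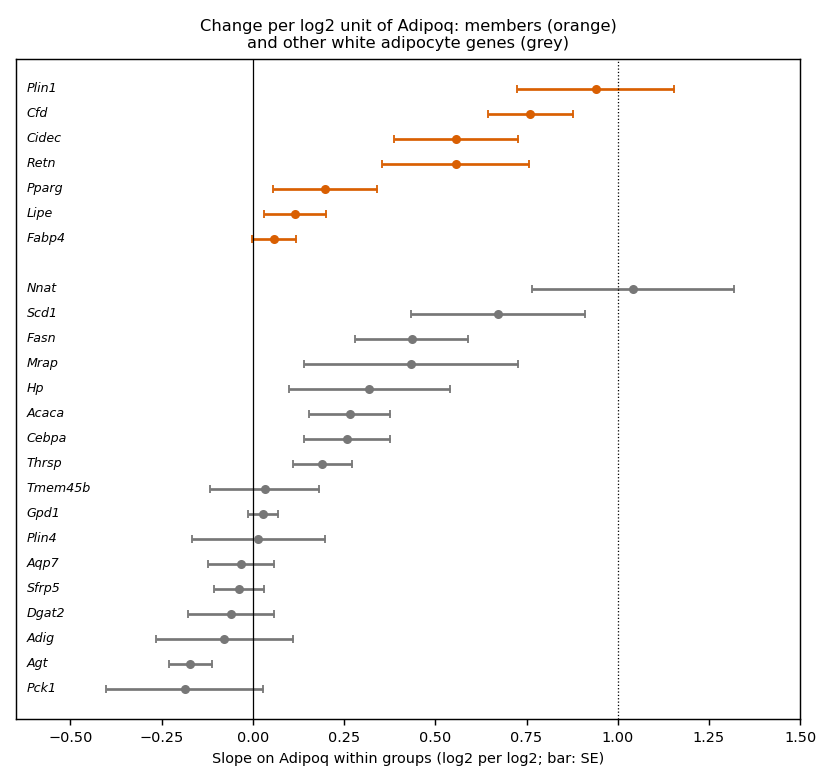
Slope on Adipoq within groups (x axis, log2 per log2, bars are the SE) for 7 members (orange, Retnla and Lep not shown) and for the 17 tested genes of the other white adipocyte list (grey); the solid line marks 0 and the dotted line 1. Plin1 (0.94) and Nnat (1.04) lay near 1, and Fabp4 (0.06) near 0.

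The same fit was read for markers of other cell types. No gene of the lists for endothelium (10 tested), macrophage (10), fibroblast and fibro-adipogenic progenitor (10), Schwann cell (6), tendon (6), blood (5), fast fiber (6), brown adipocyte (4) or shared triglyceride metabolism (15) had a slope with an unadjusted p under 0.05. Median slopes of these lists lay between -0.27 for blood and 0.17 for brown adipocyte. The endothelial list, which bears on Fabp4, summed to 191.0 to 197.7 FPKM in WT sedentary, 199.0 to 240.3 FPKM in strNrip1-/- sedentary, 175.2 to 205.2 FPKM in WT trained and 226.2 to 236.9 FPKM in strNrip1-/- trained libraries, with all 10 markers above 0 in every library. Fabp4 had an r of 0.410 with this sum over the 12 libraries (permutation p = 0.185) and of -0.295 within groups (exact p = 0.477). The part of endothelium in the Fabp4 level was not tested further.

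The first group comparison set the labelled genotypes against each other in sedentary muscle. No member was called (limma adjusted p under 0.05 and fold above 1.2), against 3.51% of the 12744 tested genes. All 8 tested members had a positive log2 fold change, with a median of 0.93, where 6345 of 12744 genes were higher and the median of all genes was 0.00. Several members were high or low in the same libraries, so these are not 8 separate results. All 8 were also higher in 2 of the comparisons below. Cfd was 14.6 ± 5.99 FPKM in WT and 49.99 ± 27.7 FPKM in strNrip1-/- sedentary muscle, a log2 fold change of 1.70 (SE 0.473, adjusted p = 0.0810). Cidec differed by 1.39 (SE 0.432, adjusted p = 0.118), Adipoq by 1.30 (SE 0.564, adjusted p = 0.281) and Plin1 by 0.99 (SE 0.650, adjusted p = 0.524). For Lipe the log2 fold change was 0.39 (SE 0.164, adjusted p = 0.256), and for Fabp4 it was 0.32 (SE 0.111, adjusted p = 0.168). Both were smaller with the FPKM sums of all libraries set equal, at 0.25 for Lipe and 0.16 for Fabp4. Every strNrip1-/- library exceeded every WT library for Cfd, Cidec, Pparg and Lipe, a pattern that 9.79% of tested genes showed in that direction. Without strNrip1-/- sedentary replicate 3 the log2 fold change was 0.40 for Plin1, 0.31 for Retn, 0.80 for Adipoq, 0.95 for Cidec, 1.28 for Cfd and 0.23 for Lipe.

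In trained muscle no member was called between the genotypes either, against 5.98% of genes. All 8 tested members again had a positive log2 fold change, with a median of 0.26, where 6501 of 12744 genes were higher. Cfd was 37.3 ± 15.7 FPKM in WT and 54.6 ± 31.1 FPKM in strNrip1-/-, a log2 fold change of 0.48 (SE 0.473, adjusted p = 0.627) that ran from 0.0465 to 0.80 when single libraries were left out. Adipoq was 4.04 ± 3.22 and 4.28 ± 2.01 FPKM (log2 fold change 0.23, SE 0.564) and Plin1 2.71 ± 2.28 and 2.98 ± 2.89 FPKM (0.04, SE 0.650). Lipe was 10.2 ± 1.45 and 14.2 ± 2.19 FPKM (0.46, SE 0.164, adjusted p = 0.129). It was the one member whose strNrip1-/- libraries all exceeded the WT libraries, as 13.9% of genes did. The interaction of genotype and training was not called for any member or for any gene (0%, with 989 genes at an unadjusted limma p under 0.05), and for Cfd it was -1.22 (SE 0.669, adjusted p = 0.684).

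Training was compared within each genotype. In WT muscle 0% of genes were called by limma, with 1061 at an unadjusted p under 0.05. All 8 tested members had a positive log2 fold change there, with a median of 0.56, where 6423 of 12744 genes were higher. The same WT sedentary libraries were the reference between the sedentary genotypes, so these comparisons are not separate results. Cfd differed by 1.34 on the log2 scale, trained minus sedentary (SE 0.473, adjusted p = 0.492), Adipoq by 0.81 (SE 0.564), Retn by 0.81 (SE 0.475) and Lipe by 0.40 (SE 0.164, adjusted p = 0.537). Leaving out single libraries gave 0.27 to 1.21 for Adipoq and 0.51 to 1.07 for Retn. For Cfd, Retn, Pparg and Lipe every trained WT library exceeded every sedentary one, as 7.76% of genes did. In strNrip1-/- muscle 0% of genes were called, with 1544 at an unadjusted p under 0.05. Of the 8 tested members 4 were higher after training, with a median of -0.049, where 6616 of 12744 genes were higher. Adipoq (-0.26, SE 0.564), Plin1 (-0.39, SE 0.650) and Cidec (-0.40, SE 0.432) had negative log2 fold changes there, and Lipe a positive one (0.47, SE 0.164, adjusted p = 0.306). No member had trained libraries all above the sedentary ones, a pattern seen for 9.40% of genes.

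**Figure D4:**
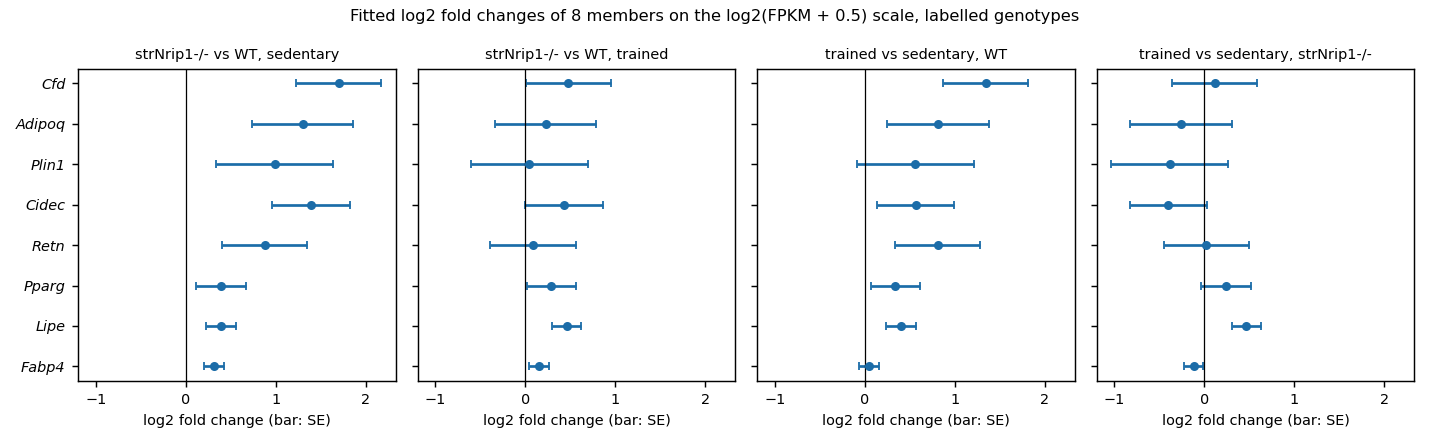
Fitted log2 fold changes (x axis, bars are the SE) of 8 adipocyte transcripts in the 4 comparisons of labelled groups. Cfd (1.70) and Cidec (1.39) were largest between the sedentary genotypes with wide errors, while Lipe lay between 0.39 and 0.47 in all 4 panels with a small error but fell to 0.23 between sedentary genotypes without strNrip1-/- sedentary replicate 3; no point passed the adjusted test.

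Pooling both training states gave 6 libraries of each genotype, tested by exact two-sided permutation within training state (400 arrangements, smallest possible p = 0.005), 1 of 18 such tests, unadjusted. Lipe was 8.88 ± 1.81 FPKM in WT and 12.2 ± 2.95 FPKM in strNrip1-/- muscle, a log2 difference of 0.43 (exact p = 0.005), with all 6 strNrip1-/- libraries above the WT mean of their training state. Of all tested genes 4.21% reached that smallest p in the same direction. Cfd differed by 1.09 (exact p = 0.025), Fabp4 by 0.23 (exact p = 0.03) and Cidec by 0.91 (exact p = 0.035), with 5 of 6 libraries above that mean for each. The members that passed were 4 of 9, and 10.6% of all tested genes passed in that direction. Adipoq (0.76, exact p = 0.14), Pparg (0.34, exact p = 0.12), Plin1 (0.52, exact p = 0.31), Retn (0.48, exact p = 0.265) and Lep (0.04, exact p = 0.91) did not pass. Leaving out single libraries ended the call in 5 of 12 cases for Cfd, 7 for Fabp4 and 8 for Cidec, and in 0 for Lipe. Between trained and sedentary muscle, pooled over genotypes, Lipe differed by 0.44 (exact p = 0.015), in 6 of 6 libraries, where 5.69% of all tested genes passed as higher in trained muscle, and Cfd by 0.73 (exact p = 0.11). Without strNrip1-/- sedentary replicate 3 the exact p of Cfd in that comparison was under 0.05.

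Lipid genes that fibers also use were read beside Lipe, since fibers make Lipe too. Of 15 tested genes of triglyceride synthesis, storage and release, 3 were called higher in strNrip1-/- sedentary and 6 in strNrip1-/- trained muscle, and none lower. Of all 12744 tested genes, 245 and 409 were called higher in these comparisons. Cd36, a fatty acid transporter, was higher by 0.67 (SE 0.113) and 0.61 (SE 0.113) on the log2 scale. Pnpla2, the adipose triglyceride lipase that acts before hormone-sensitive lipase, was higher by 0.57 (SE 0.113) and 0.85 (SE 0.113). Plin5, a droplet protein of oxidative tissues, was higher by 1.43 (SE 0.254) and 1.91 (SE 0.254). These were the 3 genes called in sedentary muscle. Of the 15 genes, 12 had a positive log2 fold change in sedentary and 12 in trained muscle. Plin2 went the other way, at -0.38 in sedentary and -0.13 in trained muscle. In sedentary muscle 6 genes were higher and 1, Plin2, was lower at an unadjusted limma p under 0.05. None of these 15 genes had a slope on Adipoq past the unadjusted limit. From which cells the Lipe reads came was not tested. Of the 17 other white adipocyte genes, 0 were called in sedentary muscle and 1, Dgat2 (1.38, SE 0.213), in trained muscle. Among all tested genes 3.51% and 5.98% were called in either direction.

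Because several members moved together, the RefSeq promoter windows of the members (250 bases before to 50 after each start site, GRCm38.p6) were searched on both strands for letters bound by regulators of adipocyte genes. Of the 10 members 9 had windows, 13 in all, and Fabp4 had none in the table. The core letters of C/EBP sites, TTGCNNAA, were found for Cidec, Lep, Plin1, Pparg and Retnla, in 5 of 13 windows, and in 10.8% of all 32851 promoters. The core letters of nuclear receptor sites, AGGTCA, was found for Pparg and Retnla, in 3 of 13 windows and 16.3% of all promoters. A direct repeat of these letters with 1 base between, the form that PPARγ is known to bind, was in 0 of 13 windows and in 0.0396% of all promoters. A match is only a match of letters. The windows of 3 genes that moved with Adipoq are shown with the match in capitals, 30 bases each, first for Lep (chr6:29060155-29060184, plus strand, 55 bases before the start site), then Cidec (chr6:113434944-113434973, minus strand, 198 bases before) and Plin1 (chr7:79732945-79732974, minus strand, 187 bases before).
Lep: tggccggacagTTGCGCAAgtggcactggg
Cidec: ggagggctctaTTGCTCAAgggcccatggg
Plin1: ccacctctttaTTGCCTAAacatcccccat
The windows of Adipoq, Cfd, Retn and Lipe held none of these letters.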

How the data were processed

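Libraries from EDL RNA were prepared with an unstranded kit. Per the study's methods, reads were quantified with Salmon (1.10.2, per the submitters' processing notes) against mm10, summed to genes with tximport and tested with DESeq2 (1.44.0). The authors deposited FPKM for each gene and library. The annotation release and the function that gave FPKM are not given in the sources used here. Log2 fold changes and adjusted p-values of the authors' own comparisons stand in the same table and were not used. The table held 0 sample columns beyond the 12 libraries.

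FPKM is not a count, so limma (3.58.1, R 4.3.3) with a mean-dependent variance prior was fitted to log2(FPKM + 0.5) of 12744 genes (those averaging 0.5 FPKM or more), with 4 group means. A gene was called at a Benjamini-Hochberg adjusted p under 0.05 and a fold above 1.2, and the interaction at the adjusted p alone. This scale understates changes of low genes. The slope on Adipoq added its centred log2 value to that model. Permutation tests used Python 3.11.15 and scipy 1.17.1. The fits were tested on simulated data. The steps between low FPKM values of 1613 single-transcript genes over 1500 nt gave each depth, and 99.1% to 99.6% of values lay within 0.15 of a whole fragment. Fragment limits cover counting error only.

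The members and gene lists were chosen with earlier results of these data known. Named genes were all members, the 10 non-members with the highest r with Adipoq, leading genes of each list and Nrip1. Ucp1, Cidea, Ppargc1a, Cd36, Pnpla2, Plin2, Plin5 and Dgat2 were named after their values were seen. Groups and replicate numbers came from the sample titles. Same-numbered libraries of different groups had correlated deviations between -0.10 and 0.24, over 0.1 in 5 of 18 pairs, against 3 of 36 pairs with other numbers. Libraries were not treated as paired in the main fits. These counts cannot settle whether the numbers mark a pairing or shared handling. Alternatives varied the pseudocount, filter, scaling, block, covariate and libraries. No p-value was adjusted over the members alone. Coordinates are 1-based from GENCODE on GRCm38.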

Additional observations from a re-analysis of the deposited data

How the results depend on the processing

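No member was called in any group comparison or for a slope on Adipoq under any alternative run. Of 604 alternative values of 32 member fold changes, 578 kept their direction and side of the threshold and 26 changed sign. Lep and Retnla were outside this count. With the Adipoq level as a covariate, Plin1 turned to -0.23 between genotypes in sedentary and -0.17 in trained muscle and to -0.20 for training in WT, and Retn to -0.0387 between genotypes in trained muscle. Rescaling every library to the same FPKM sum turned Fabp4 for training in strNrip1-/- to 0.0562, gave slopes on Adipoq of 0.13 for Fabp4 and 0.17 for Lipe, both with an unadjusted limma p under 0.05, and moved the median of all genes by -0.14 between sedentary genotypes and by 0.16 for training in strNrip1-/-.

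Counts over all genes depended on the fit. Between sedentary genotypes 447 genes became 263 with the Adipoq covariate, 166 with only the 6 libraries compared and 163 to 478 when single libraries were left out, the lowest without WT sedentary replicate 1 (222 and 216 without replicates 2 and 3, 260 without strNrip1-/- sedentary replicate 1). In trained muscle 762 became 445 with 6 libraries and 315 to 874 when single libraries were left out (385 without WT trained replicate 1 or 3, 333 and 315 without strNrip1-/- trained replicates 2 and 3). For training in WT, 0 became 8 at a mean of at least 5 FPKM, 4 with quantile normalization, 1 at the same FPKM sum and 0 to 30 when single libraries were left out (30 without WT trained replicate 1, 1 to 5 without WT sedentary replicate 1, strNrip1-/- sedentary replicate 3 or replicate 3 of a trained group). For training in strNrip1-/-, 0 became 5 at 5 FPKM, 150 at the same FPKM sum, 2 with the Adipoq covariate and 0 to 4 without single libraries (3 without WT trained replicate 1, 4 without strNrip1-/- sedentary replicate 3). The interaction gave 0 to 1, the 1 without WT trained replicate 3. The cause was not tested.

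With replicate number as a block, genes called for training in WT were 4, and those between sedentary genotypes 441. The adjusted p of Cidec in sedentary muscle was then 0.0536, and the slopes on Adipoq were 0.58 for Plin1, 0.32 for Retn and 0.0851 for Pparg. Whether the numbers mark paired libraries is not known.

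Correlations with Adipoq fell under the threshold without the 2 farthest libraries for Cidec (0.625) and Retn (0.590), after removing group means for Retn (0.665), and in the 9 lower libraries for Plin1 (0.293), Cidec (0.597), Lep (0.371) and Retn (0.0994), while Pparg passed without the 2 libraries (0.690). Leaving out single libraries (added after seeing the data, as were the 9 libraries) gave 0.358 to 0.733 for Fabp4, 0.514 to 0.693 for Pparg and 0.393 to 0.642 for Lipe, with 2 of 12 cases passing for each, and none of the other 5 genes crossed the threshold.

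Without single libraries the log2 difference between trained genotypes ran from -0.17 to 0.77 for Adipoq, -0.59 to 0.59 for Plin1, -0.21 to 0.47 for Retn and -0.11 to 0.58 for Pparg. Between trained genotypes Cfd ran from 0.0465 to 0.80 and Cidec from 0.14 to 0.83. Training in WT ran from -0.00316 to 0.12 for Fabp4, 0.0180 to 0.98 for Plin1, 0.27 to 1.21 for Adipoq, 0.51 to 1.07 for Retn and 0.33 to 0.75 for Cidec. Training in strNrip1-/- ran from -0.58 to 0.24 for Adipoq, -0.31 to 0.54 for Cfd, -1.02 to 0.21 for Plin1, -0.78 to 0.0444 for Cidec, -0.30 to 0.58 for Retn and -0.16 to 0.53 for Pparg. Pooled genotype differences ran from 0.51 to 1.03 for Adipoq (passing without WT trained replicate 3), 0.87 to 1.25 for Cfd, 0.19 to 0.28 for Fabp4, 0.69 to 1.11 for Cidec, -0.11 to 0.28 for Lep and 0.14 to 0.48 for Pparg (passing without strNrip1-/- trained replicate 2). The call of Cfd was lost without replicate 3 of WT sedentary or either strNrip1-/- group or replicate 1 or 2 of WT trained. Pooled training differences ran from 0.51 to 0.94 for Cfd, -0.23 to 0.38 for Plin1, -0.0793 to 0.0141 for Fabp4, -0.11 to 0.30 for Cidec and 0.0889 to 0.43 for Pparg. Lep rested on as few as 1.99 fragments, so its low values carry wide counting error.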
